A study of Bos taurus with 8 samples.

Results

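The 3 chains of complement C1q and 6 genes used as markers of macrophage-type monocytes were followed in blood mononuclear cells of cows. The 9 genes (C1QA, C1QB, C1QC, CSF1R, CD163, CD68, ITGAM, LGMN and CTSS) were chosen by name, with earlier results of these data known. Every probe whose accession belonged to one of them was taken. This gave 17 probes of 43653, and all 9 genes had a probe bright enough to enter the comparison of 15137 genes. Lymphocytes and monocytes, isolated together as peripheral blood mononuclear cells, came from lame crossbred cows, normal crossbred cows and normal cows of the Tharparkar breed, an Indian zebu. Their RNA was read on 8 Agilent bovine arrays in 1 colour (Cy3), 4 for the lame group and 2 for each normal group. RNA samples were run in technical duplicate, per the labels' protocols. The lame arrays carry 2 numbers in their titles (R1_1, R1_2, R2_1 and R2_2) and the normal arrays carry 1 (R1 and R2). The labels used here give no age, cause of lameness or treatment for any group, and leave unsaid whether each RNA was that of 1 cow or of several pooled.

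C1q is the recognition molecule of the classical complement pathway and is built from A, B and C chains. It binds antibody on a target, and also dying cells and some microbes directly, and starts the protease cascade through C1r and C1s. Most of the C1q in the body is made by macrophages and related myeloid cells, which depend on signals through the CSF1 receptor, whereas circulating classical monocytes are best known for CD14 and carry much less of it. Legumain and cathepsin S, the remaining gene products followed here, are proteases of the endosomes and lysosomes in which these cells degrade what they take up.

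Between 52.8% and 61.5% of probes were well above background on 7 arrays, against 70.9% on lame R2_2. Its median raw signal was 192.5, and that of the others 74 to 102. Gene levels correlated across genes at 0.981 to 0.997 between arrays of the same lame number or normal group, at 0.951 to 0.970 between other lame arrays, and at 0.931 to 0.966 between groups. On that basis the arrays are treated as duplicates of 4 RNA samples, namely lame R1 and lame R2, 1 of normal crossbred and 1 of Tharparkar cows. The unit of every test was the array, so p-values reflect the spread of arrays and do not measure that between cows. With 1 RNA sample in each normal group, a group difference cannot be told apart from a difference between single RNA samples. Each slide held arrays of all 3 groups, but each RNA sample kept its position on both slides, so position and RNA sample cannot be told apart. In bulk RNA such as this, fewer cells of a type and less RNA per cell cannot be told apart either. Levels are log2 values on a scale where 0 is the 75th percentile of the processed signals of an array. Levels of different probes are not compared with each other.

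All 3 C1q chains were higher in the lame arrays than in the normal crossbred arrays. C1QA, which encodes the A chain, had levels of 4.26 and 4.23 on the lame R1 arrays, 4.33 and 4.32 on the lame R2 arrays, 2.90 and 3.02 on the normal crossbred arrays, and 3.72 and 3.80 on the Tharparkar arrays. Its second probe, A_73_P116901, read 1.22 and 1.11, then 2.13 and 1.83, then -0.05 and -0.05, and finally 0.83 and 0.75 in the same order. On both probes every lame array was highest, every normal crossbred array lowest, and the Tharparkar arrays lay between with no overlap. Of all genes, 15.7% were higher without overlap in lame than in normal crossbred arrays, and 40.5% were lower without overlap in normal crossbred than in Tharparkar arrays. For lame above Tharparkar arrays that share was 24.8%.

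C1QB, the B chain, had levels of 3.23 and 3.04 in lame R1, 3.28 and 3.08 in lame R2, 1.63 and 1.58 in normal crossbred and 2.40 and 2.14 in Tharparkar arrays. C1QC, the C chain, had 1.44 and 1.29, then 0.85 and 0.96, then -0.47 and -0.01, and then 0.27 and 0.51. The order of the groups was the one seen for C1QA, and no groups overlapped. Within the lame group the C chain was higher in R1 than in R2, by 0.46, whereas the brightest probes of the A and B chains differed by 0.08 or less.

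Lame and normal crossbred cows share the crossbred type and differ in lameness. All 3 chains were called higher there, beside 3.3% of all genes. C1QB rose 2.93-fold (log2 difference 1.55, SE 0.15, limma adjusted p = 0.00146), C1QA 2.51-fold (1.33, SE 0.13, adjusted p = 0.00146) and C1QC 2.60-fold (1.38, SE 0.23, adjusted p = 0.0122). The second C1QA probe gave a larger difference (1.62, SE 0.30, adjusted p = 0.0225 over all probes). Both lame RNA samples showed the difference: C1QA was 1.29 above the normal crossbred mean in lame R1 and 1.36 in lame R2, C1QB 1.53 and 1.57, and C1QC 1.61 and 1.15. Within slide 1 and slide 2, C1QA differed by 1.40 and 1.25, C1QB by 1.62 and 1.48, and C1QC by 1.61 and 1.14. Slide 1 and slide 2 carried the same RNAs, so their agreement is technical. With duplicates averaged to 1 value per RNA sample the log2 differences were the same and none of the 9 genes was called (adjusted p = 0.527 for C1QB, 0.754 for C1QC and 0.837 for C1QA). Scaling to each array's median also ended every call, with log2 differences of 0.82 for C1QA (adjusted p = 0.523), 1.04 for C1QB (adjusted p = 0.453) and 0.87 for C1QC (adjusted p = 0.526), while the median of all genes moved to -0.55. C1QC was also not called when either normal crossbred array was left out.

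The C1q chains also differed between the normal groups, which differ in breed and not in lameness, and 2 of the 3 were called lower in normal crossbred arrays, beside 6.91% of all genes. C1QA was lower in normal crossbred than in Tharparkar arrays by 0.80 on the log2 scale (log2 difference -0.80, SE 0.15, limma adjusted p = 0.0105), and C1QB was lower too (-0.66, SE 0.17, adjusted p = 0.0353). On the second C1QA probe the difference was -0.84 (SE 0.34) and did not pass (limma adjusted p = 0.14 over all probes). C1QC differed by -0.63 (SE 0.26) and did not pass (adjusted p = 0.137). Neither C1QA nor C1QB was called with quantile normalization or with normexp background correction, or when either normal crossbred array or either Tharparkar array was left out.

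Lame arrays exceeded the Tharparkar arrays by 0.53 to 0.89 over the 3 chains, and 2 of them were called, beside 12.5% of all genes that rose. C1QB rose 1.85-fold (0.89, SE 0.15, limma adjusted p = 0.00626). C1QA rose 1.44-fold (0.53, SE 0.13, adjusted p = 0.0239), a direction that held under 5 of 6 scalings and background corrections and turned to -0.03 when arrays were scaled to their median, where the median of all genes was itself -0.57. Its second probe gave 0.78 (SE 0.30, limma adjusted p = 0.103 over all probes), which did not pass. The C1QA call was lost without any 1 of the 4 normal arrays and the C1QB call without Tharparkar R2. C1QC differed by 0.74 (SE 0.23, adjusted p = 0.053) and did not pass, but was called without lame R2_1 or lame R2_2. The comparisons share the lame or the normal crossbred arrays, so the same 2 normal crossbred arrays enter both the rise in lame cows and the fall against Tharparkar.

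**Figure D1:**
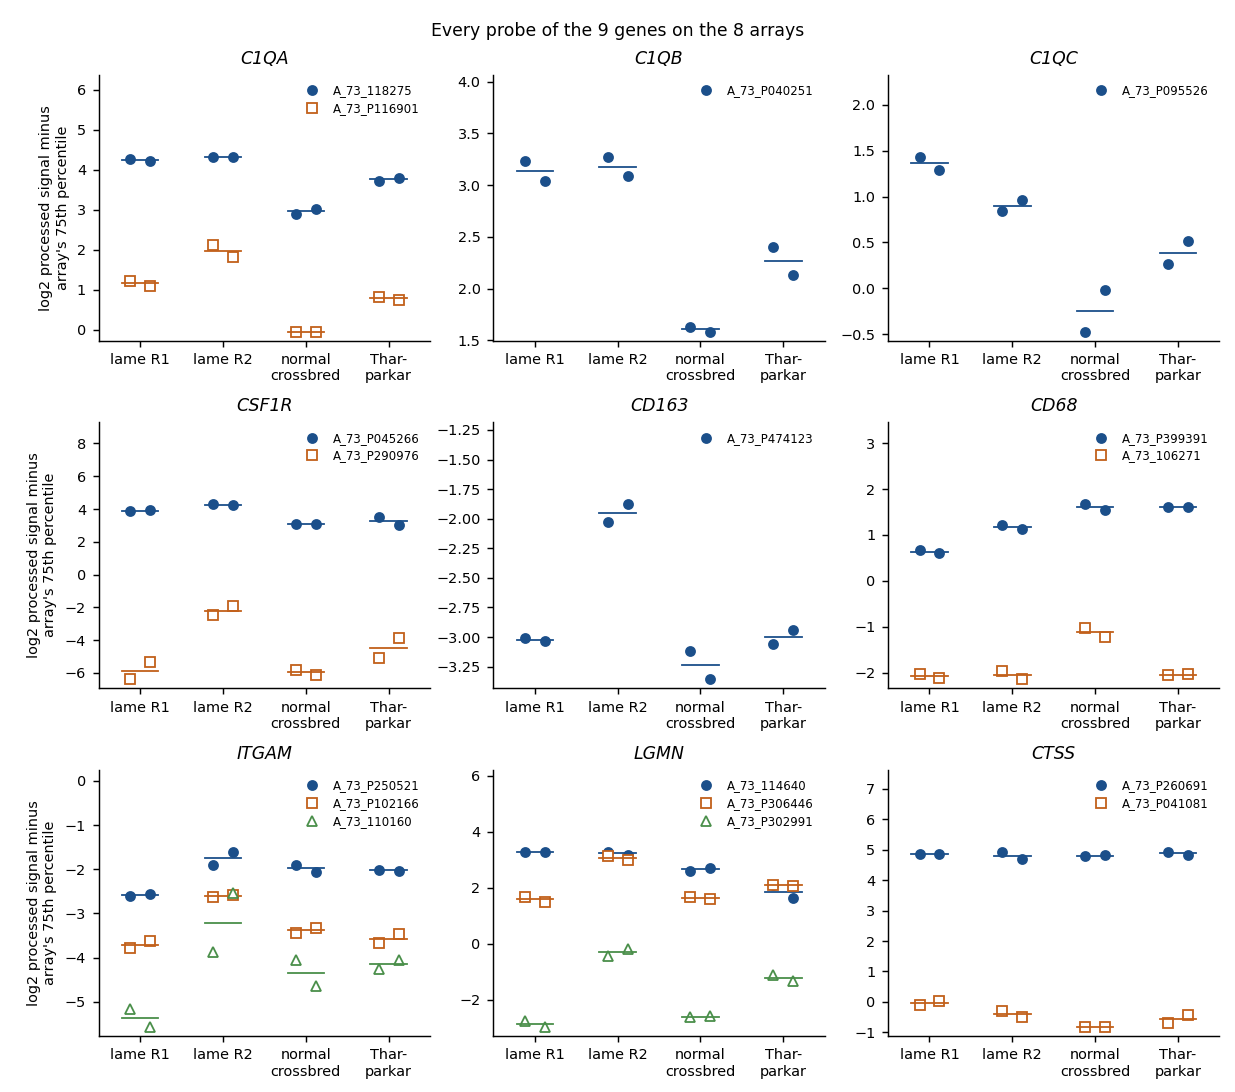
Log2 level of every probe of the 9 genes (vertical axis; 0 is the 75th percentile of the array) in the 4 RNA samples, with 1 point for each duplicate array, a line at their mean, and filled symbols for the probe that represents the gene. The C1q probes are highest in both lame RNA samples and lowest in the normal crossbred arrays, whereas CD163, ITGAM and 2 of the LGMN probes stand higher in lame R2 than in lame R1.

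Of the 4 genes for receptors and surface proteins, CSF1R was called in both comparisons with lame arrays. It encodes the receptor for colony-stimulating factor 1 and interleukin-34, on which the survival of macrophages depends. Its levels were 3.87 and 3.94 in lame R1, 4.30 and 4.22 in lame R2, 3.08 and 3.09 in normal crossbred and 3.54 and 3.04 in Tharparkar arrays. All lame arrays were above all normal arrays, whereas the normal groups overlapped, with the Tharparkar duplicates apart from each other. Among all genes, 15.7% were higher without overlap in lame than in normal crossbred arrays, and 24.8% than in Tharparkar arrays.

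CSF1R rose by 1.00 on the log2 scale in lame against normal crossbred arrays (SE 0.20, limma adjusted p = 0.0248) and by 0.80 against Tharparkar (SE 0.20, adjusted p = 0.0288). Between the normal groups it differed by -0.20 (SE 0.23, adjusted p = 0.59). The call against normal crossbred was lost without either normal crossbred array, and the call against Tharparkar without lame R2_1 or any 1 of the 4 normal arrays. Quantile normalization lost both, as did median scaling, which gave 0.49 against normal crossbred. Within slides the difference from normal crossbred was 1.01 and 0.99, and that from Tharparkar 0.55 and 1.04. A second CSF1R probe, A_73_P290976, was well above background on 2 arrays, both of lame R2 (-2.48 and -1.91), and was not well above background elsewhere, so it did not enter the fit.

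CD163, the scavenger receptor for haemoglobin bound to haptoglobin, differed between the lame RNA samples. Its levels were -2.03 and -1.88 in lame R2, against -3.01 and -3.03 in lame R1, -3.12 and -3.36 in normal crossbred and -3.06 and -2.94 in Tharparkar arrays. The lame R1 arrays lay between the Tharparkar arrays and just above the normal crossbred arrays, and the lame R2 arrays stood above all others. The group difference was 0.75 (SE 0.37, limma adjusted p = 0.253) against normal crossbred and 0.51 (SE 0.37, adjusted p = 0.352) against Tharparkar, and neither passed.

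CD68, a glycoprotein of late endosomes and lysosomes that serves as a general macrophage marker, stood lower in the lame arrays. Its brighter probe read 0.67 and 0.60 in lame R1, 1.22 and 1.14 in lame R2, 1.67 and 1.54 in normal crossbred and 1.60 and 1.61 in Tharparkar arrays. Every lame array was below every normal array, but the differences of -0.70 (SE 0.21) against either normal group did not pass (limma adjusted p = 0.0877 and 0.0526). Among all genes, 23.1% were lower without overlap in lame than in normal crossbred arrays, and 25.2% than in Tharparkar arrays. The difference from Tharparkar was called without lame R2_1 or lame R2_2. That from normal crossbred was called under 4 of 23 alternatives, namely the mean of probes, array weights and each lame RNA sample alone. The other probe, A_73_106271, gave another pattern: -1.03 and -1.22 in normal crossbred arrays, against -1.97 to -2.15 in the lame and -2.06 and -2.03 in the Tharparkar arrays. On that probe CD68 fell in lame against normal crossbred (-0.94, SE 0.14, adjusted p = 0.011 over all probes) and was higher in normal crossbred than in Tharparkar arrays (0.92, SE 0.16, adjusted p = 0.01). The probes thus share a direction in the first comparison, and in the second they gave 0.00 and 0.92.

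ITGAM encodes CD11b, the alpha chain of an integrin that binds complement-coated particles and is carried by granulocytes and NK cells as well as monocytes. Its brightest probe read -2.61 and -2.56 in lame R1, -1.90 and -1.60 in lame R2, -1.90 and -2.06 in normal crossbred and -2.01 and -2.03 in Tharparkar arrays. Lame R1 was lowest and lame R2 at or above the normal arrays, so the lame group spanned both normal groups. The difference from normal crossbred was -0.19 (SE 0.30, limma adjusted p = 0.753), and its other probes gave 0.23 (SE 0.38) and 0.06 (SE 0.78). None of the 3 ITGAM probes passed in any comparison.

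The proteases behaved differently from each other and, for LGMN, differently between probes. LGMN encodes legumain, which cuts proteins after asparagine and activates other lysosomal proteases. Its brightest probe read 3.27 and 3.29 in lame R1, 3.28 and 3.18 in lame R2, 2.60 and 2.71 in normal crossbred and 2.10 and 1.61 in Tharparkar arrays. The groups did not overlap and formed an order from lame through normal crossbred to Tharparkar, unlike that of the C1q chains. Without overlap, 15.7% of all genes were higher in lame than in normal crossbred arrays, and 41.5% in normal crossbred than in Tharparkar arrays.

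On this probe LGMN was 2.63-fold higher in lame than in Tharparkar arrays (1.40, SE 0.17, limma adjusted p = 0.0019) and 1.74-fold higher in normal crossbred than in Tharparkar arrays (0.80, SE 0.19, adjusted p = 0.0284). The second of these calls was lost without normal crossbred R1, normal crossbred R2 or Tharparkar R2. Against normal crossbred the lame arrays differed by 0.60 (SE 0.17, adjusted p = 0.0692), which did not pass. The other LGMN probes did not share this order. A_73_P306446 read 1.66 and 1.5 in lame R1, 3.12 and 2.97 in lame R2, 1.67 and 1.59 in normal crossbred and 2.11 and 2.07 in Tharparkar arrays, and A_73_P302991 read -2.75 and -2.98, -0.43 and -0.18, -2.63 and -2.59, and -1.12 and -1.33. Both stood higher in lame R2 than in the other RNA samples, by 0.92 or more, and were higher in Tharparkar than in normal crossbred arrays (differences of -0.46, SE 0.56, and -1.39, SE 0.96, neither passing). The mean of the LGMN probes therefore turned the breed difference to -0.35. In lame against Tharparkar arrays A_73_P306446 gave 0.23 (SE 0.49) and A_73_P302991 -0.36 (SE 0.83), and neither passed. On both probes lame R1 lay below Tharparkar. The call in that comparison was lost with the mean of the LGMN probes.

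CTSS encodes cathepsin S, which trims the invariant chain from MHC class II molecules. Its bright probe varied least of the 17, from 4.70 to 4.93 over the 8 arrays, and the lame arrays overlapped both normal groups. The difference between lame and normal crossbred was 0.03 (SE 0.13, limma adjusted p = 0.925). Its dimmer probe, A_73_P041081, read -0.11 and 0.02 in lame R1, -0.30 and -0.50 in lame R2, -0.81 and -0.82 in normal crossbred and -0.68 and -0.44 in Tharparkar arrays, and its difference of 0.59 (SE 0.18) did not pass either (adjusted p = 0.105 over all probes).

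**Figure D2:**
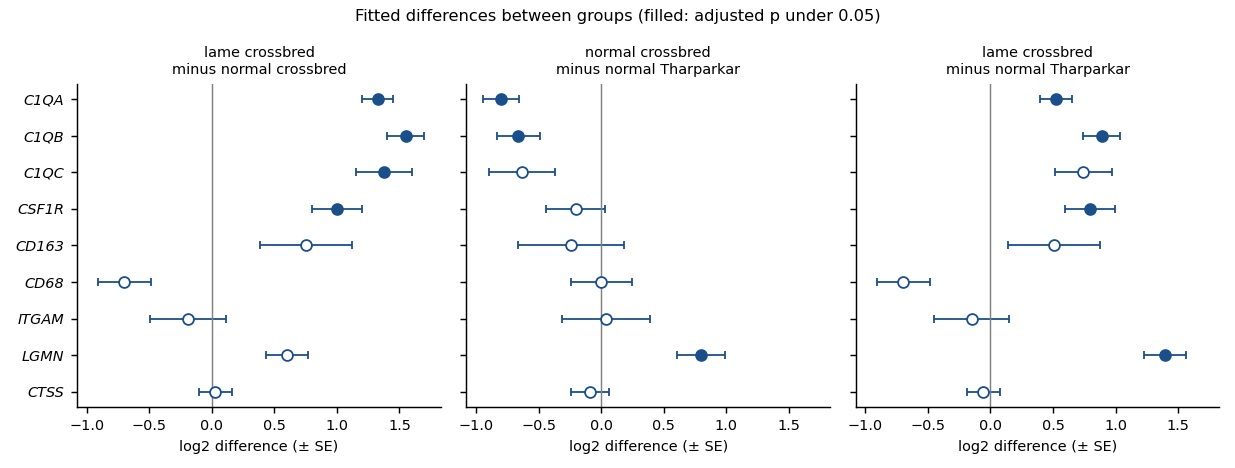
Fitted log2 difference (horizontal axis) with its standard error for the 9 genes in the 3 comparisons, with filled points at an adjusted p under 0.05 (limma, over all genes). C1QA, C1QB, C1QC and CSF1R lie at 1.00 to 1.55 in the lame against normal crossbred panel, CD68 at -0.70, and LGMN reaches 1.40 against Tharparkar.

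Of the 9 genes, 4 rose and 0 fell in lame against normal crossbred arrays, where 3.3% of all genes rose and 6.32% fell. In normal crossbred against Tharparkar arrays 1 was higher (LGMN; 11.7% of all genes) and 2 were lower (C1QA and C1QB; 6.91%). In lame against Tharparkar arrays 4 rose (C1QA, C1QB, CSF1R and LGMN; 12.5% of all genes) and 0 fell (10.8%). The median log2 difference of the 9 genes was 0.75, -0.20 and 0.53 in these comparisons, beside -0.04, 0.01 and -0.01 over all genes. Because the genes were chosen with earlier results of these data known, these counts and medians do not test the set. Arrays of the groups did not overlap for 7 genes in the first comparison, 6 of them higher, where 15.7% of all genes were higher and 23.1% lower without overlap. In the second this held for 6 genes, 1 of them higher (41.5% and 40.5% of all genes), and in the third for 6, 5 of them higher (24.8% and 25.2%). With 2 arrays in each normal group, the second comparison separates most genes, and its count is close to that background. Of the 16 probes fitted, 5 rose and 1 fell in the first comparison (3.21% and 4.12% of all probes), 2 were higher and 2 lower in the second (9.64% and 8.03%), and 4 rose and 0 fell in the third (11.7% and 9.86%).

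The lame RNA samples matched on some of the 9 genes and differed on others. Lame R1 minus lame R2 was -0.08 for C1QA, -0.04 for C1QB, 0.05 for CTSS and 0.05 for the bright LGMN probe, against a median absolute difference of 0.50 over all genes and a median SD between duplicates of 0.13. It was -0.36 for CSF1R, -0.54 for CD68, -0.84 for ITGAM and -1.07 for CD163. Dim genes as a whole were higher in lame R2: the median difference was -0.50 in the dimmest of 4 equal level classes, which holds CD163, and 0.47 in the brightest, which holds C1QA, C1QB, CSF1R, LGMN and CTSS. The dimmer LGMN probes differed by -1.46 and -2.56, and the second C1QA probe by -0.81. The higher brightness of lame R2_2 moves with these values, and its part in them was not tested. Lame R2_1 stood above both lame R1 arrays likewise for CD163 (-2.03), ITGAM (-1.90) and both dimmer LGMN probes. Its median raw signal of 102 was the highest after that of lame R2_2, so it too was brighter than the lame R1 arrays.

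**Figure D3:**
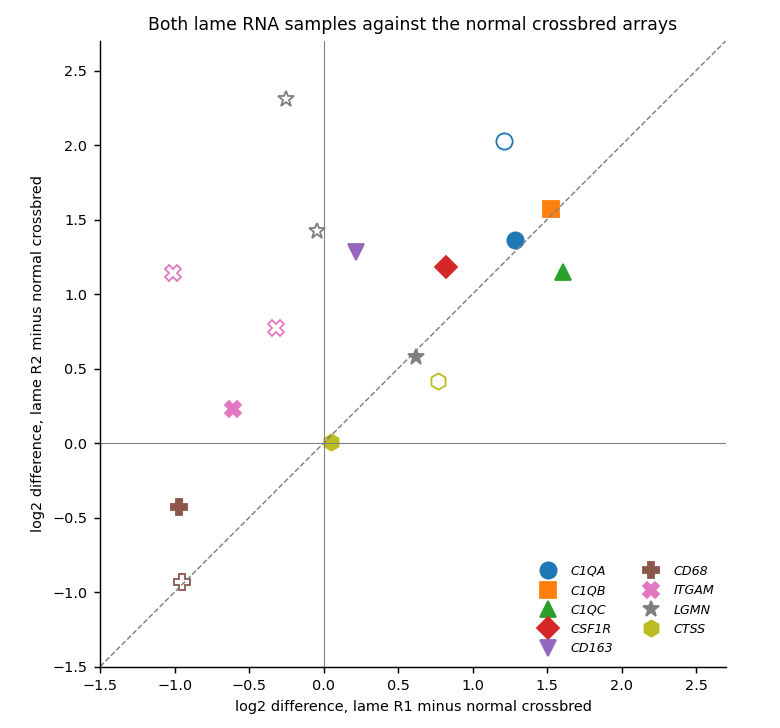
Log2 difference from the normal crossbred mean in lame R1 (horizontal axis) and lame R2 (vertical axis) for the 16 probes above background on at least 6 arrays, with filled symbols for the probe that represents a gene and the dashed line at equal values. C1QB and the bright C1QA, LGMN and CTSS probes lie within 0.08 of equal values, whereas the second C1QA probe, CD163, ITGAM and the dimmer LGMN probes lie above it.

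Over the 8 arrays, which are duplicates of 4 RNA samples, the chains moved together, and this is given as a description. Pearson's r was 0.97 between C1QA and C1QB, 0.93 between C1QA and C1QC, and 0.91 between C1QB and C1QC. CSF1R followed at 0.93 with C1QB, 0.86 with C1QA and 0.75 with C1QC. CD68 ran the other way, with r between -0.72 and -0.90 against the 3 chains. CTSS had r of 0.09 to 0.14 with them, on a range of 0.24 log2 units.

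Of 4658 named genes with a range of at least 1 log2 unit, the 5 most like the mean C1q profile were CRYGS (r = 0.99), CDKL4 (0.98), FBXO45 (0.98), CPXM2 (0.97) and SLC43A3 (0.97). CRYGS, a lens crystallin, read 2.47 to 3.22 on the 4 lame arrays, -1.81 and -1.83 in normal crossbred and 1.18 and 1.00 in Tharparkar arrays, which is the C1q order over a wider range. CPXM2, a carboxypeptidase-like protein, ranged from -0.08 in lame R2_1 to -5.70 in normal crossbred R2. The 5 most like CSF1R were MANSC1 (r = 0.98), SLC2A6 (0.97), SLC25A15 (0.96), CAVIN3 (0.96) and H2AC25 (0.96). None of these 10 genes is on the complement or macrophage lists used here. In the RefSeq gene order of assembly ARS-UCD2.0, C1QB, C1QC and C1QA lie between EPHB2 and EPHA8, with LOC112443416, to which no probe was matched, between C1QB and C1QC. EPHB2 had 1 probe, which was well above background on 0 of 8 arrays, and no probe was matched to EPHA8.

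Of 19 other complement genes measured, 3 rose and 2 fell in lame against normal crossbred arrays, with a median log2 difference of 0.05. For this list and those below, the shares of all genes called were 3.3% higher and 6.32% lower in that comparison. They were 11.7% and 6.91% in normal crossbred against Tharparkar arrays, and 12.5% and 10.8% in lame against Tharparkar arrays. The 3 that rose were CD59, which blocks the membrane attack complex (1.62, SE 0.33, limma adjusted p = 0.026), C3AR1, the receptor for C3a (1.44, SE 0.32), and C3, the central component of the cascade (0.61, SE 0.13, adjusted p = 0.0334). C3 read 1.23, 1.07, 1.27 and 1.13 in the lame arrays, 0.58 and 0.56 in normal crossbred and 0.39 and 0.24 in Tharparkar arrays. Its groups did not overlap, beside 15.7% of all genes that were higher in lame than in normal crossbred arrays without overlap. For normal crossbred above Tharparkar arrays that share was 41.5%, and C3 was not called there (0.26, SE 0.15, limma adjusted p = 0.295). SERPING1, the inhibitor of C1r and C1s, was not well above background on any lame array and was at least 2.09-fold lower there than in normal crossbred arrays (adjusted p = 0.000578; mean measured levels -5.20 and -3.29). SERPING1 thus entered the fit only through the normal groups, where it was higher. C5AR1, a receptor for C5a that is abundant on granulocytes and monocytes, fell (-1.86, SE 0.25, adjusted p = 0.00604). C1S, one of the proteases through which C1q starts the cascade, differed by 0.04 (SE 0.37) and was well above background on 6 of 8 arrays. Of 3 measured proteins that bind C1q, 0 were called in any comparison.

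The complement list held 3 higher and 1 lower gene in normal crossbred against Tharparkar arrays (median 0.05), and 7 higher and 3 lower genes in lame against Tharparkar arrays (median 0.07). CFB, the protease of the alternative pathway, was 2.19 higher in normal crossbred than in Tharparkar arrays (SE 0.16, limma adjusted p = 0.000396) and differed by -0.15 between the crossbred groups. CLU, clusterin, was 1.84 higher (SE 0.24) and C2 1.05 higher (SE 0.28) in the same comparison. C5AR1 was the lower gene (-1.53, SE 0.29, adjusted p = 0.0125), with mean levels of -3.07 in lame, -1.21 in normal crossbred and 0.32 in Tharparkar arrays.

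CSF1R rose without a called change in its ligands. CSF1 differed by 0.58 (SE 0.42, limma adjusted p = 0.441) and IL34 by 0.46 (SE 0.50) between lame and normal crossbred arrays, both with their highest level on lame R2_2. SPI1, the transcription factor PU.1 of the myeloid lineage, differed by 0.02 (SE 0.23). Of the 12 measured genes of the CSF1 receptor axis and myeloid factors, 0 were called in that comparison (median 0.26), 2 were lower in normal crossbred than in Tharparkar arrays (CEBPB, -1.03, and IRF8, -0.75; median -0.46), and 3 fell in lame against Tharparkar (CEBPB, -1.51, IRF8, -1.30, and KLF4, -1.27; median -0.13). ITGB2, the beta chain that pairs with ITGAM, differed by 0.05 (SE 0.22) between lame and normal crossbred arrays. ITGAD, another alpha chain that pairs with it, fell there (-1.62, SE 0.20, limma adjusted p = 0.00403).

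Of 10 measured scavenger receptor and haem handling genes, 3 rose and 0 fell in lame against normal crossbred arrays, with a median of 0.70. HP, haptoglobin, whose complex with haemoglobin CD163 takes up, rose 2.08 on the log2 scale (SE 0.33, limma adjusted p = 0.011). It read 0.36 and 0.36 in lame R1, 1.46 and 1.09 in lame R2, -1.16 and -1.36 in normal crossbred and -0.36 and -0.32 in Tharparkar arrays. HMOX1, haem oxygenase, which breaks down the haem so taken up, rose by 0.64 (SE 0.13, adjusted p = 0.0231) and TIMD4, a receptor for dying cells, by 1.46 (SE 0.36, adjusted p = 0.0467). TIMD4 was well above background on all 4 lame arrays, 1 normal crossbred array and 0 Tharparkar arrays. It entered the fit only through the lame group, where it was high, so its calls are not independent of the filter. In normal crossbred against Tharparkar arrays 0 of the 10 were called (median -0.21), and in lame against Tharparkar 3 rose and 0 fell (median 0.59).

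Of 25 measured lysosomal proteases, inhibitors and hydrolases, 1 rose and 1 fell in lame against normal crossbred arrays (median 0.31): CTSB, cathepsin B, rose (0.77, SE 0.15, limma adjusted p = 0.0248) and CST6, a cystatin, fell (-0.75, SE 0.17, adjusted p = 0.0361). CST3, the main secreted cystatin and an inhibitor of cathepsin S, differed by 0.39 (SE 0.20, adjusted p = 0.279). In normal crossbred against Tharparkar arrays 2 were higher and 3 lower (median -0.43), with CTSC 1.64 and CST6 0.74 higher and GAA, CTSF and CTSB lower by 1.58, 0.78 and 0.67 on the log2 scale (log2 differences of -1.58, -0.78 and -0.67). In lame against Tharparkar 1 rose and 2 fell (median -0.12).

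**Figure D4:**
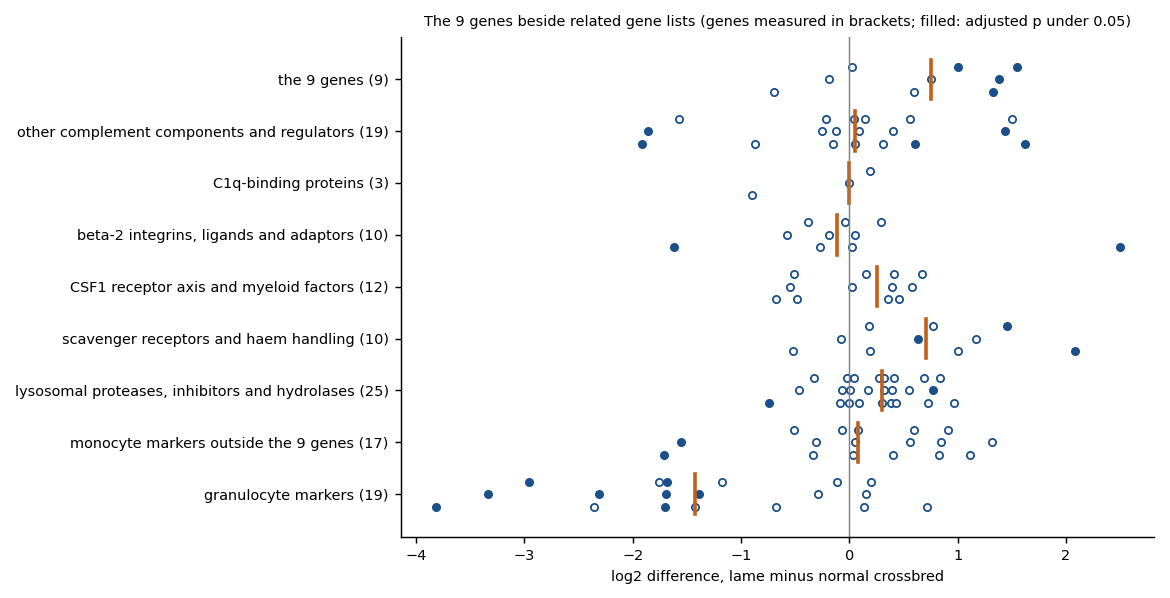
Log2 difference between lame and normal crossbred arrays (horizontal axis) for each measured gene of the 9 genes and of 8 related lists, with filled points at an adjusted p under 0.05 (limma) and an orange bar at the list's median. The 9 genes and the scavenger list have medians of 0.75 and 0.70, the other complement genes 0.05, and the granulocyte markers -1.42.

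Of 22 other monocyte markers listed, 17 were measured, and 0 rose and 2 fell in lame against normal crossbred arrays (median 0.08). These were the lipopolysaccharide receptors CD14 (-1.56, SE 0.31, limma adjusted p = 0.0229) and TLR4 (-1.71, SE 0.35, adjusted p = 0.0263). CD14 read -0.65 and -0.86 in lame R1 and 0.13 and 0.06 in lame R2. It read 1.31 and 1.14 in normal crossbred and 1.36 and 1.22 in Tharparkar arrays, so every lame array was below every normal array. Among all genes, 23.1% were lower without overlap in lame than in normal crossbred arrays, and 25.2% than in Tharparkar arrays. FCGR3A, which encodes CD16 and marks non-classical monocytes and NK cells, differed by 0.06 (SE 0.15). In normal crossbred against Tharparkar arrays 2 were higher (CX3CR1, 1.54, and AIF1, 0.72), and in lame against Tharparkar 2 rose and 3 fell. These counts stand beside 11.7% of all genes higher in the former, and 12.5% higher and 10.8% lower in the latter. The summed linear level of the 17 genes, in units of the 75th percentile signal, was 125 to 131 in lame R1, 146 to 150 in lame R2, 126 to 128 in normal crossbred and 132 to 138 in Tharparkar arrays. The sum was highest in lame R2, and the part of the monocyte share in the C1q difference was not tested.

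Markers of other blood cells moved between the groups as well. Granulocyte markers, which belong to cells that also carry ITGAM and that mononuclear preparations retain to varying degrees, had 8 of 19 lower and 0 higher in lame against normal crossbred arrays (median -1.42; 12 lower without the bright array lame R2_2), with sums of 161 to 207 in lame, 239 to 251 in normal crossbred and 262 to 272 in Tharparkar arrays. Of the 18 T cell markers, 5 fell in that comparison (sums of 127 to 148 in lame, 211 to 223 in normal crossbred and 116 in both Tharparkar arrays), and of 12 NK and cytotoxic markers 6 fell (51.1 to 95.7, 154 to 167 and 64.3 to 68.9). Sums were 31.0 to 55.0, 34.4 to 36.3 and 52.7 to 53.4 for 7 dendritic cell markers, of which 1 rose and 0 fell, and 115 to 193, 177 to 178 and 199 to 219 for 7 B cell markers, likewise 1 and 0. For 8 platelet markers they were 42.1 to 51.4, 39.0 to 40.5 and 30.9 to 32.7, and for 7 erythroid markers 12.3 to 21.9, 7.53 to 8.68 and 7.46 to 7.80, with 1 rise and 0 falls in each list; the platelet rise was not called without lame R2_2. The sums add linear levels, so the brightest probes of a list weigh most. The lame ranges join RNA samples that differed. NK sums were 51.1 to 55.6 in lame R1 and 88.0 to 95.7 in lame R2, and B cell sums 177 to 193 and 115 to 133. The T cell and NK sums were highest in the normal crossbred arrays, where the C1q chains were lowest. The part of these cell markers in the C1q difference was not tested.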

How the data were processed

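Peripheral blood mononuclear cell RNA of 3 groups was measured on 8 one-colour arrays. The authors deposited scanner files whose intensity values (processed signal) were background-subtracted and detrended within the array, with no scaling between arrays, per the file headers, which name Agilent Feature Extraction 12.0.3.1 (11.5.1.1 in the submitters' processing notes). They also deposited a table of log2 values, which tracked the processed signal once scaled to the 75th percentile of an array and centred on the probe median. Its columns have medians from -0.13 to 0.88, the scale was not stated, and it served as an alternative.

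Here log2 processed signals were scaled to each array's 75th percentile over 43653 probes, control spots and 35 outlier probes were left out, and a probe was kept if all arrays of some group had it well above background. Accessions without version were matched to RefSeq genes of ARS-UCD2.0 (27054 matched, 16599 kept the file's name). No coordinates are given because the array annotation used an older assembly. A gene dim in other groups could enter through the group where it was high, and its call is then not independent of the filter. A gene took its brightest probe. The test was limma's moderated test (version 3.58.1, R 4.3.3; lmFit and eBayes, 2-sided, 1 fit of 3 group means), adjusted by Benjamini-Hochberg over 15137 genes, or over 24658 probes where stated, and called under 0.05. The fit was tested on simulated data with known changes, in which arrays varied independently by the spread between duplicates. The simulation held no differences between RNA samples of a group, so it says nothing of false calls that such differences bring. The number of arrays, and that of the 4 RNA samples behind them, limits the precision.

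All members and every probe were named. From the pathway and marker lists at most 4 called genes a list and comparison were named by size (C3 against normal crossbred and CTSB between the normal groups were added after their values were seen), besides 9 defining genes, as were the 5 genes most like C1q and CSF1R. Members and lists were chosen with earlier results of these data known. Alternatives covered background correction, scaling, filter, probe choice, duplicates, array weights, slide and each array left out. The result of 1 listed gene is not reported here.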

Additional observations from a re-analysis of the deposited data

How the results depend on the processing

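The direction of C1QA, C1QB, C1QC and CSF1R in lame against normal crossbred arrays held under all 23 alternatives. That of LGMN in lame against Tharparkar held under 23, read on its brightest probe in all but the mean of probes. Not all of the 23 could turn a direction. The slide block, the random block, averaged duplicates and leaving out arrays of the group not compared alter only the test. The filter settings kept the same probe of these genes, so their differences stayed the same too. Of the 9 genes, those called numbered 4 in lame against normal crossbred, 3 in normal crossbred against Tharparkar and 4 in lame against Tharparkar arrays. Scaling to each array's median, averaging duplicates, or treating them as a random block gave 0, 0 and 0. With duplicates averaged, 1 residual degree of freedom is left, and limma then used 1 spread common to all genes in place of a spread for each gene. Without a filter on dim probes the counts were 2, 0 and 2, with array weights 7 in both comparisons with lame arrays, with lame R1 alone 7 in both, with normexp or quantile normalization 1 between the normal groups, and with only the groups compared 2 in lame against Tharparkar. The 7 in lame against normal crossbred include falls of CD68 and ITGAM. These were -0.95 and -0.56 with array weights, and -0.97 and -0.61 with lame R1 alone. With lame R2 alone 6 were called in lame against normal crossbred, among them CD163 as higher (1.285) and CD68 as lower (-0.43). Leaving out 1 array gave 2 to 4, 0 to 3 and 1 to 6. It was 2 (C1QA and C1QB) without either normal crossbred array in lame against normal crossbred. Between the normal groups it was 0 without normal crossbred R1, normal crossbred R2 or Tharparkar R2 and 1 (LGMN) without Tharparkar R1. In lame against Tharparkar it was 2 (C1QB and LGMN) without normal crossbred R1, normal crossbred R2 or Tharparkar R1, 1 (LGMN) without Tharparkar R2 and 6 without lame R2_2. Calls over all genes in lame against normal crossbred, 1455 in all, were 160 and 177 without normal crossbred R1 and R2. The cause of these changes was not tested. Slide as a replicate block gave 4, 3 and 4 and changed no member's call; deviations of the same-numbered normal arrays correlated at 0.24 across genes, and with 2 numbers a pairing cannot be settled.

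Direction turned as follows, in log2 differences. In lame against normal crossbred, CTSS was -0.481 with median scaling and -0.00028 to 0.0727 with 1 array left out, and ITGAM was 0.034 as the mean of its probes and 0.23 with lame R2 alone. In normal crossbred against Tharparkar, normexp gave 0.0744 for CSF1R, -0.318 for ITGAM and 0.21 for CTSS, quantile normalization 0.13 for CTSS, median scaling -0.0406 for CD68 and -0.0035 for ITGAM, and the mean of probes -0.35 for LGMN. Leaving out 1 array gave -0.456 to 0.0467 for CSF1R, -0.0633 to 0.0669 for CD68 and -0.0386 to 0.116 for ITGAM. In lame against Tharparkar, normexp gave -0.32 for CD163 and 0.30 for CTSS, quantile normalization 0.26 and the 75th percentile over probes detected on all arrays 0.0801 for CTSS, median scaling -0.026 for C1QA and -0.0406 for CD163, the mean of probes 0.042 for ITGAM and 0.14 for CTSS, lame R1 alone -0.0234 for CD163 and lame R2 alone 0.27 for ITGAM.

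Median scaling moved the median of all genes to -0.55 in lame against normal crossbred and -0.57 in lame against Tharparkar arrays, where it was -0.04 and -0.01. The share of calls that were higher, 34.3% in lame against normal crossbred, became 21.6% with normexp, 46.5% with the percentile over detected probes and 13.2% with median scaling; in lame against Tharparkar 53.7% became 36.6% with normexp and 28.8% with median scaling. Normexp used the median foreground signal, because the files used here hold no mean signal. Without lame R2_2, a choice made after seeing the data, counts higher and lower in lame against normal crossbred were 4 and 3 for the other complement genes, 3 and 0 for the scavenger list, 0 and 2 for the monocyte markers, 0 and 4 for the T cell markers, 0 and 7 for the NK markers, 0 and 0 for the platelet markers and 2 and 0 for the erythroid markers. Dim probes, CD163 and ITGAM among them, are limited by signal over background.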
